A study of Drosophila melanogaster with 12 samples.

Results

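The replication profile of Drosophila larval salivary glands that lack Rif1 was set against that of larval wing discs, a diploid tissue. The comparison used 4 of the 12 libraries of the study, 2 per tissue, and every window of the major arms X, 2L, 2R, 3L and 3R, which came to 118985 of the 120166 windows in the table. The salivary glands came from female 3rd instar larvae before wandering, about 20 per genotype, which carried the null alleles Rif1 1 over Rif1 2 in a w 118 background, and their DNA was taken from whole unsorted tissue. The wing discs came from female 3rd instar larvae of the Yellow-white strain, with wild-type Rif1, and are labelled S phase: their nuclei were stained with DAPI and G1 and S populations were sorted. The protocol text of the wing disc libraries speaks of follicle cell nuclei, a phrase shared with other libraries of the study, so the tissue rests on the other labels. No agent was applied to either tissue. To place the differences, the wild-type OregonR salivary gland was set beside them (2 libraries, female larvae of the same stage). Some comparisons also used SuUR mutant salivary glands of that stage (SuUR ES in a w 118 background). Others used OregonR fat body of female larvae and OregonR follicle cells of the adult ovary. Tissue, strain, Rif1 genotype, sorting and library kit all differ between the 2 groups, so their parts in any difference cannot be told apart.

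In most dividing cells euchromatin replicates early in S phase and heterochromatin late, and the wing disc, the epithelium that will form the wing and part of the thorax, divides mitotically. Salivary gland cells endocycle instead: they copy their chromosomes again and again without mitosis, and leave pericentric heterochromatin and a set of late euchromatic sites with fewer copies, a state called underreplication (UR). Rif1 is a conserved protein that recruits protein phosphatase 1 and holds back late origins, and in flies it acts with SUUR, a factor that slows forks, to bring about UR. Underreplicated sites are divided into pericentric heterochromatin (PH) and euchromatic UR (eUR), and the remainder is called fully replicated (FR).

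The value of a window, rawRT, is a score that is higher where a locus is earlier or has more copies, and in a polyploid tissue late and incompletely copied DNA cannot be told apart by it. Neither table holds read counts, so the depth behind a score is unknown and precision was judged from the replicates. Scores were averaged in bins of 50 windows, and 2371 of 2382 bins had at least 25 values in each of the 4 libraries. Because the tissues were profiled and scaled by different methods, each bin was also given its percentile rank within its own library, from 0 (latest) to 100 (earliest). Single regions and genes are given by rank, and counts and region classes by rank and score.

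The Rif1 gene itself was checked first. Of the 6 windows over it, 2 had a score in each library labelled Rif1, with medians of -1.21 and -1.33, while all 6 had one in every wild-type salivary gland, SuUR and wing disc library. Wild-type salivary gland medians were 0.488 and 1.24, and wing disc medians 0.0533 and -0.555. Among these groups, the libraries labelled Rif1 were the ones that lacked most of the windows of the gene.

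The Rif1 and wing disc libraries differed in the spread of their scores. The SD of the bin means over FR was 0.482 and 0.562 in the Rif1 libraries and 0.295 and 0.306 in the wing disc. The wing disc profile was thus flatter. Adjacent windows correlated at 0.533 and 0.545 in the Rif1 libraries and at 0.169 and 0.185 in the wing disc (Pearson's r, which a few extreme windows can sway). By rank the wing disc was not the less reproducible: single windows of the 2 replicates correlated at rho = 0.613 there and at 0.517 in the Rif1 gland. By Pearson's r the order was reversed, at 0.635 and 0.853. The highest scores were 236 and 262 in the Rif1 libraries against 12.6 and 13.4 in the wing disc. These extremes came from 113 windows above 10 in both Rif1 libraries, of which 54 were in PH, 46 in eUR and 60 on X. None of the 113 exceeded 3 in a wing disc library, their median wing disc score was -1.01, and they fell in 28 bins, 27 of them tested.

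Outside UR the order of loci along S phase was largely unrelated between the 2 tissues. Over all 2371 bins the mean profiles correlated at Pearson's r = 0.210 and Spearman's rho = 0.112, and over the 2084 FR bins at r = 0.0222 and rho = -0.00311. Replicates, in contrast, correlated at rho = 0.858 (Rif1) and 0.913 (wing disc) over all bins. Over the 214 UR bins (eUR and PH) with values in all 12 libraries of the study, the mean profiles of the 2 tissues correlated at r = 0.206 and rho = 0.552. These values describe bins of a shared genome that are not independent, and carry no p.

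The salivary gland with Rif1 lay closer to the wing disc. Over 2240 bins with values in all 12 libraries, rho with the mean wing disc profile was 0.0876 and 0.148 in the Rif1 libraries and 0.454 and 0.457 in the wild-type salivary gland. Both Rif1 libraries thus lay below both wild-type libraries, by 0.338 on average, and also below every SuUR, fat body and follicle cell library, which ranged from 0.326 to 0.477. The exact two-sided permutation test of Rif1 against wild type gave p = 0.333, the smallest that 2 against 2 libraries allow. Over FR bins alone the 2 Rif1 libraries gave -0.0315 and 0.0222 and the wild-type ones 0.288 and 0.293. Over the same FR bins the wild-type gland gave a rho of -0.0268 with follicle cells and 0.453 with fat body. So low a value between tissues was thus not particular to the Rif1 gland.

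**Figure D1:**
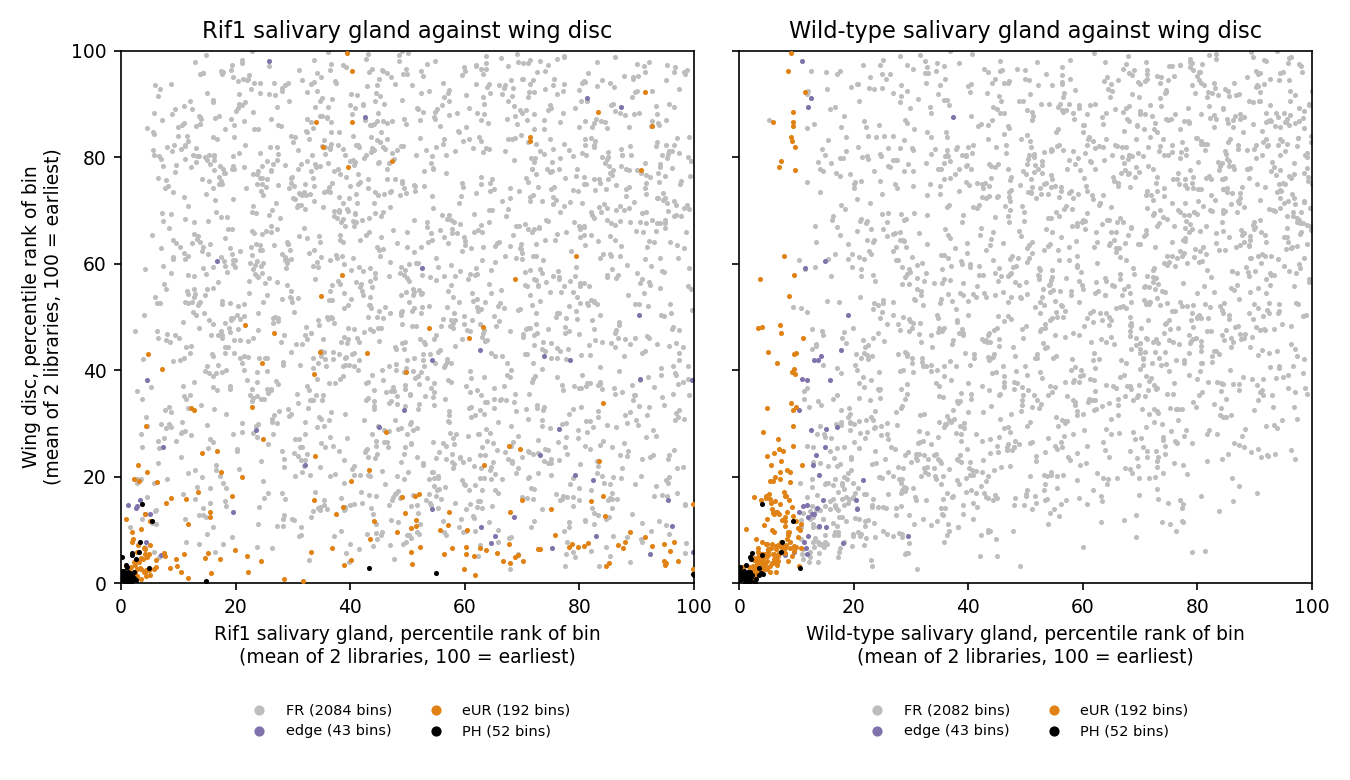
Percentile rank of each bin in the wing disc (y axis, mean of 2 libraries, 100 = earliest) against that in the Rif1 salivary gland (left x axis) and the wild-type salivary gland (right x axis), with points coloured by region class (edge bins lie partly in UR). On the left the 2084 FR bins fill the square (rho = -0.00311) and many eUR bins reach high Rif1 ranks at low wing disc ranks; on the right late bins of both tissues coincide.

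Along the genome rho varied widely, though the spread to be expected of unrelated profiles was not computed. Divided into 115 stretches of 20 bins, the genome gave a median rho of 0.0436 between Rif1 salivary gland and wing disc, from -0.708 to 0.653. In 53 stretches rho was below 0, in 12 it was above 0.5 and in 7 below -0.5. The same stretches gave a median of 0.331 between wild-type salivary gland and wing disc, from -0.723 to 0.866. The wild-type value was the higher one in 93 of 115. Medians between the replicates of Rif1 and of wing disc were 0.809 and 0.860. The lowest value was that of X 2F-3D, the stretch that holds Notch and the Sgs4 glue gene (chrX:2272200-3447200). The highest was that of 3R 88C-88F (chr3R:14463000-15482000), where Rif1 and wild-type salivary glands also ran together at 0.913. By arm, rho over all bins was 0.0232 on X, 0.0164 on 2L, 0.332 on 2R, 0.132 on 3L and 0.0509 on 3R. Over FR bins with values in all 12 libraries it was 0.0239, 0.0322, 0.123, -0.0330 and -0.120.

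Quartiles of the window scores gave the same picture. Of 114121 windows, 26.8% lay in the same quartile in Rif1 salivary gland and wing disc and 11.5% at opposite ends, against 30.3% and 8.59% for wild-type salivary gland and wing disc. The latest quartile was the exception: 31.4% of the latest Rif1 windows were also latest in the wing disc, while the earliest Rif1 windows were earliest in the wing disc in 24.9%. After spline smoothing the shares in the same quartile were 28.8% and 40.7%. In bins, 189 were in the latest quartile of both tissues, of which 72 were eUR and 48 PH. Earliest in the Rif1 gland and latest in the wing disc were 123 bins, 24 of them eUR, and the reverse held for 124 bins, all FR. The 2240 bins so divided held 162 eUR, 52 PH and 1994 FR bins.

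Bin by bin, many loci were called in each direction. Ranks have the same mean in every library, so a near-even split of rank calls is largely built in. Limma on percentile ranks called 1142 of 2371 bins (48.2%) at an adjusted p below 0.05, of which 565 (23.8%) ranked higher in the Rif1 gland and 577 (24.3%) in the wing disc. On rawRT it called 1296 (54.7%), 577 (24.3%) higher in the Rif1 gland and 719 (30.3%) higher in the wing disc. Both scales made the same call in 1004 bins and opposite calls in 0. With a library left out, its group is a lone library assumed to vary like the other group, whose pair gives the only residual degree of freedom. Without wing disc replicate 1 or 2, when the Rif1 pair gave the spread, there were 488 or 530 rank calls and 382 or 343 rawRT calls. Without Rif1 replicate 1 or 2, when the wing disc pair gave it, there were 959 or 1018 rank calls and 1673 or 1596 rawRT calls.

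The rank shifts were wide. The median absolute shift of a bin was 26.6 points, against 7.72 between the Rif1 replicates and 6.58 between the wing disc replicates, and 20.1% of bins moved by 50 points or more. Bins that ranked higher in the Rif1 gland had median ranks of 78.2 there and 23.1 in the wing disc, and stood at 46.8 in the wild-type gland. Those that ranked higher in the wing disc stood at 24.0, 77.7 and 47.0. Over 2348 bins, and with the same wing disc libraries, limma on ranks called 1066 bins (45.4%) between the wild-type gland and the wing disc, where the median absolute shift was 18.5 points and 10% of bins moved by 50 or more; on rawRT it called 57.8%. The study's own rule, an analysis of variance over the windows of each bin, called 377 of 2381 bins (15.8%) in 60 regions, and 375 of these were called in the same direction by limma on rawRT.

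Base composition moved with the ranks. Bin rank rose with GC content in the Rif1 libraries (rho of 0.442 and 0.495 over FR bins) and less so in the wing disc (0.104 and 0.123). Among FR bins, the fifth with the lowest GC had median ranks of 21.6 and 22.7 in the Rif1 libraries and 50.7 and 47.8 in the wing disc, and 33 bins were called higher in the Rif1 gland against 141 in the wing disc. In the fifth with the highest GC these counts were 142 and 58. Wild-type salivary glands had rho with GC of 0.50 and 0.588. With a fit on GC removed from each library, limma on ranks called 1178 bins.

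UR regions were called from the wild-type salivary gland, in which their bins ranked at 6.13 and 6.16 (eUR) and 1.65 and 1.57 (PH), so neither group compared here chose them. In the wing disc eUR bins were late too, with median ranks of 8.25 and 8.01, but in the Rif1 gland their medians were 37.5 and 28.8. Of 192 eUR bins, 69 (35.9%) ranked higher in the Rif1 gland and 14 (7.29%) in the wing disc, while 559 and 476 of the 2084 FR bins ranked higher in the wing disc and in the Rif1 gland. The eUR class is mixed: 90 of its bins lie in 15 regions in the most proximal divisions of the polytene map, past the end of PH as called. Of these, 5 ranked higher in the Rif1 gland and 7 in the wing disc, against 64 and 7 of the 102 within the arms. On rawRT the eUR bins divided more evenly, 79 (41.1%) higher in the Rif1 gland and 55 (28.6%) higher in the wing disc. Their median rawRT was -0.177 and -0.384 in the Rif1 libraries, -0.674 and -0.743 in the wing disc and -4.78 and -5.59 in the wild-type gland.

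Pericentric heterochromatin ranked last as a class in the Rif1 gland, the wing disc and the wild-type gland, with X as the exception in the Rif1 gland. The 52 PH bins had median ranks between 1.29 and 1.46 in the 4 Rif1 and wing disc libraries, and 2 ranked higher in the Rif1 gland and 0 in the wing disc by limma at the adjusted threshold. For bins that are last in both tissues the rank scale leaves little room for a call. Scores differed where ranks did not: the median rawRT of PH was -2.94 and -3.43 in the Rif1 libraries and -1.24 and -1.41 in the wing disc, and 46 of 52 bins were called lower in the Rif1 gland. In the wild-type gland it was -7.43 and -8.61. The 2 bins higher in the Rif1 gland were both on X (chrX:23163000-23539000), where PH ranked at 99.9 in both Rif1 libraries and the Rif1 libraries had median scores of 3.59 and 2.96 with interquartile ranges of 35 and 27.2, against -1.29 and -1.24 in the wing disc.

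**Figure D2:**
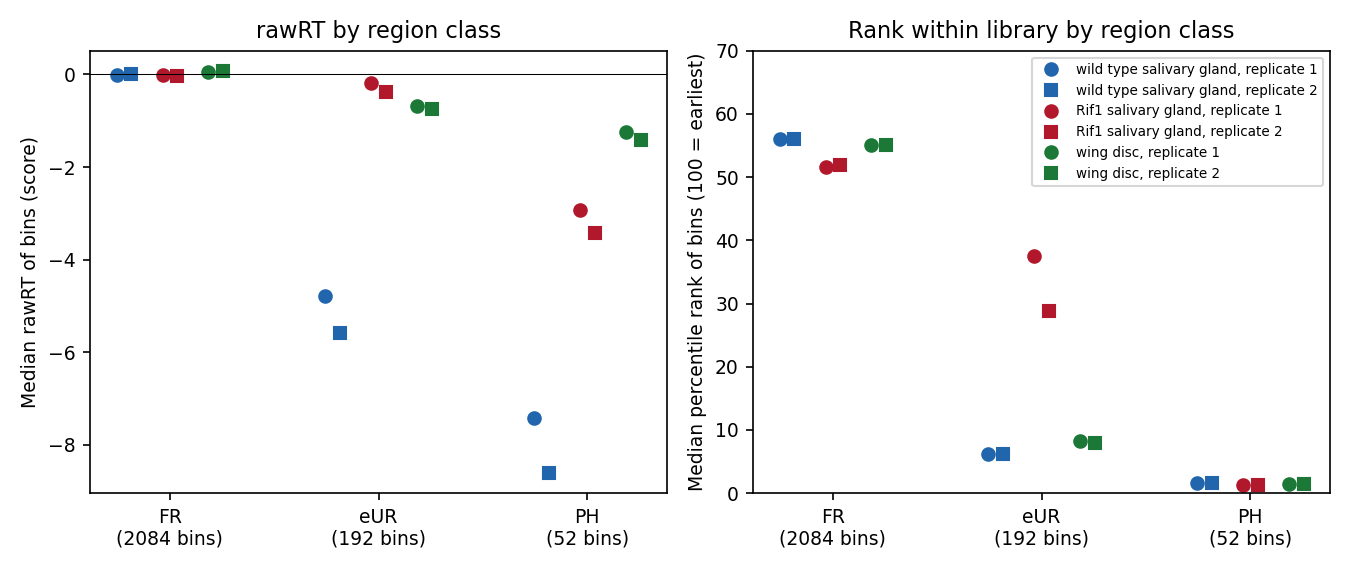
Median rawRT (left) and median percentile rank (right, 100 = earliest) of the bins of each region class, with 1 point per library. eUR bins rank at 37.5 and 28.8 in the Rif1 libraries and near 8 in the wing disc, while PH bins rank between 1.29 and 1.46 in both. The eUR class holds 102 bins within the arms and 90 in the most proximal divisions.

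The 46 eUR regions (51 to 2287 kb, 7 on 2R) split by place. In ranks, both Rif1 libraries lay above both wing disc libraries in 27 regions and below them in 10, and the libraries overlapped in 9. Such separation was common among single bins: of all 2371, 929 had Rif1 higher and 947 the wing disc higher without overlap. In rawRT the split was 23, 18 and 5. The 31 regions within the arms had median ranks of 60.4 and 65.1 in the Rif1 libraries, 11.9 and 14.7 in the wing disc and 7.91 and 7.72 in the wild-type gland. In 23 of these regions the mean Rif1 rank exceeded 50, that is, the region was earlier than the middle of the genome, and in the wing disc this was so in 5. Of the 102 bins in them 64 ranked higher in the Rif1 gland and 7 in the wing disc, and on rawRT these counts were 66 and 8.

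The other 15 regions lie in the most proximal divisions of the polytene map (20, 40, 41, 80 and 81), a division made after their values were seen. Most were late in both tissues, with median ranks of 6.98 and 5.55 in the Rif1 libraries and 10.1 and 9.95 in the wing disc. The highest ranks among them were those of X 20C-20E (chrX:22611000-22782000), at 57.3 and 31.0 in the Rif1 libraries against 13.4 and 11.4, and 2L 40A-40E (chr2L:21845000-22080000), at 29.2 and 20.1 against 48.4 and 40.6. Of their 90 bins, 5 ranked higher in the Rif1 gland and 7 in the wing disc, and on rawRT 13 and 47 did. In rawRT they were lower in the Rif1 gland without overlap in 10 of 15, against 8 of 31 within the arms. Overlap in rawRT was not counted over all bins.

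**Figure D3:**
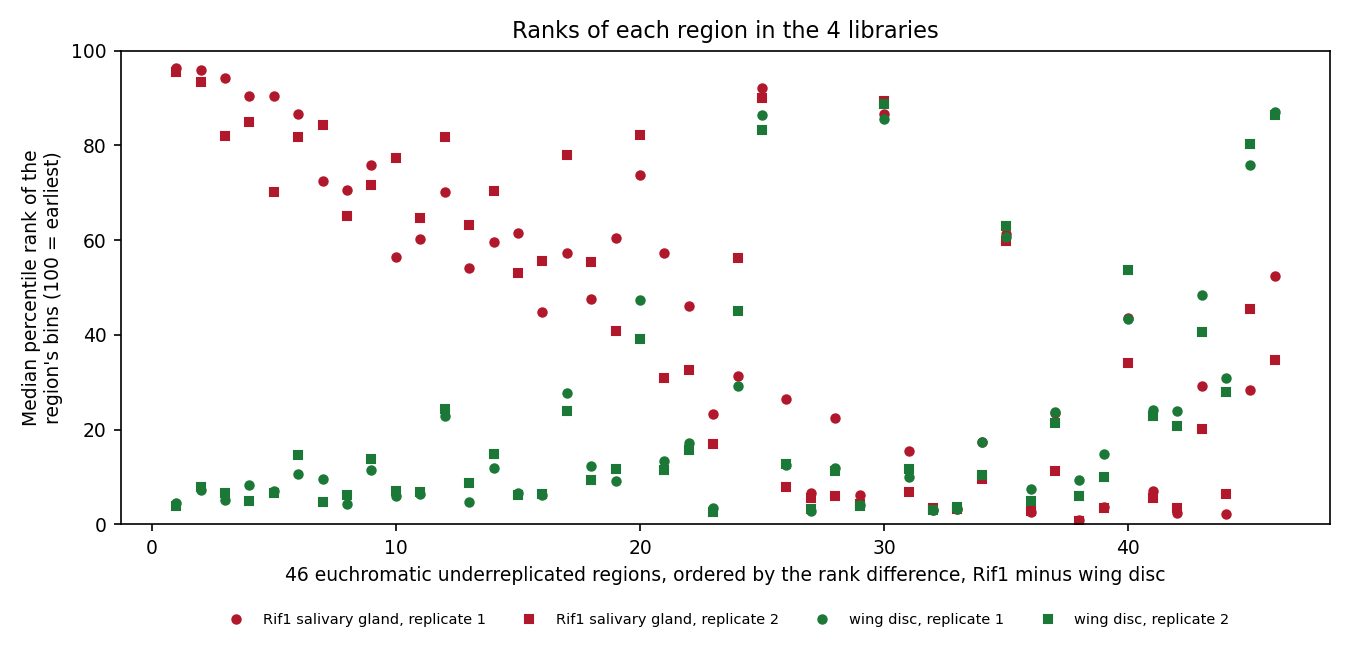
Median percentile rank (100 = earliest) of each of the 46 eUR regions in the 2 Rif1 salivary gland and 2 wing disc libraries, ordered along the x axis by the rank difference. Rif1 points lie above wing disc points without overlap in 27 regions and below them in 10 (23 and 18 in rawRT, not plotted). Of all 2371 bins, 929 and 947 were likewise without overlap in ranks.

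The region with the widest gap lies at 3R 98B-98C (chr3R:28033000-28224000), a gene desert in which no protein-coding gene has its midpoint. It ranked at 96.5 and 95.4 in the Rif1 libraries, 4.64 and 3.86 in the wing disc and 7.82 and 7.42 in the wild-type gland, so a stretch among the last of the wing disc was among the earliest of the Rif1 gland. All 4 of its bins were called. The second lies at 3L 64C (chr3L:4881400-5080100), with 7 genes from CG13705 to ATPsynCF6L, and ranked at 96.0 and 93.4 against 7.32 and 7.87. The third outside 2R, at 3L 67D (chr3L:10046000-10097000), ranked at 90.4 and 85.0 against 8.41 and 4.96. It was followed by 3R 83F (chr3R:6522100-6602100), which holds dpr11, an immunoglobulin-family receptor of neurons (90.5 and 70.1 against 7.15 and 6.71), and by 2L 32F-33A (chr2L:11596000-11749000, 86.7 and 81.8 against 10.6 and 14.7). In each of these 5 regions every bin was called higher in the Rif1 gland, and in that of 83F most bins lost the call without wing disc replicate 1 or 2, at mean shifts of 73.6 and 73.2 points.

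On 2L the underreplicated bands 35B to 36E, well known from polytene maps as late sites, behaved alike with 1 exception. Region 35B (chr2L:14723000-14952000) ranked at 56.6 and 77.4 in the Rif1 libraries and at 6.01 and 7.06 in the wing disc. The region of beat-Ia and beat-Ic at 35D-35E (chr2L:15951000-16208000), which encode guidance proteins of motor axons, ranked at 70.7 and 65.1 against 4.32 and 6.18. At 36B-36C (chr2L:16946000-17335000), with beat-IIIa, beat-IIIb, beat-IIIc and the taste receptor genes Gr36a, Gr36b and Gr36c, ranks were 44.9 and 55.6 against 6.28 and 6.41. At 36C-36E (chr2L:17536000-17956000) they were 59.6 and 70.4 against 11.9 and 14.8. The regions of 35D at chr2L:15519000-15642000 and chr2L:15783000-15873000 lay at 70.3 and 81.9 against 22.9 and 24.4, and at 47.6 and 55.4 against 12.3 and 9.34. The exception was the first region of 35D (chr2L:15354000-15486000, from CG15258 to Tim17b2). There the Rif1 ranks of 86.6 and 89.3 overlapped with the wing disc ranks of 85.6 and 88.8, although the wild-type gland stood at 9.96 and 8.72. Without wing disc replicate 1 or 2 most bins lost their call at 36B-36C (mean shifts of 39.4 and 37.8 points), at 36C-36E (35.5 and 43.5) and in the third region of 35D (42.1 and 39.2).

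A few eUR regions, late in the wild-type gland, were earlier in the wing disc than in the Rif1 gland. X 3B-3C (chrX:2984500-3117400) ranked at 52.4 and 34.7 in the Rif1 libraries, 87.0 and 86.4 in the wing disc and 8.60 and 8.52 in the wild-type gland. At 3L 75C (chr3L:18204000-18446000) the ranks were 28.4 and 45.4 against 76.0 and 80.3, and the mean shift over its bins, -31.9 points, became 2.76 once a fit on GC was removed. The histone gene repeats at 2L 39D (chr2L:21383000-21442000) ranked at 2.38 and 3.56 in the Rif1 libraries and at 23.9 and 20.7 in the wing disc. Their score was -2.78 and -2.24 against -0.452 and -0.322, but the repeat units are near-identical copies whose number can differ between strains, which makes this value uncertain. At 3R 86C (chr3R:10502000-10609000), beside the homeobox gene hth, the libraries overlapped, with ranks of 43.5 and 34.2 against 43.4 and 53.8. Most bins lost their call without wing disc replicate 1 or 2 at X 3B-3C (mean shifts of -44.0 and -45.7 points), without Rif1 replicate 1 or either wing disc replicate at 75C (-23.2, -27.8 and -35.9) and, whichever of the 4 libraries was left out, at 40A-40E (-33.7 to -20.7).

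Adjacent bins called in the same direction by rank, with a mean shift of at least 15 points, were joined into domains. There were 228 domains that ranked higher in the Rif1 gland (30460 kb in all, 36 of them on 2R) and 245 that ranked higher in the wing disc (30638 kb, 50 on 2R). Single bins made up 105 and 119 of them, and 41 and 40 held 4 bins or more. Domains higher in the Rif1 gland held 9.58 protein-coding genes per 100 kb, and those higher in the wing disc 10.4. An eUR bin was part of 28 of the former and 11 of the latter.

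The longest domain that ranked higher in the Rif1 gland ran from Src64B, which encodes a Src-family kinase, to CG34342 at 3L 64B-64D (chr3L:4567200-5526200, 60 genes). It included the 64C region, DIP-delta and the acid-sensing receptor gene Ir64a. Its mean ranks were 82.5 and 81.4 in the Rif1 libraries, 16.1 and 15.5 in the wing disc and 31.8 and 26.5 in the wild-type gland. The next ran from sna, the gene of the mesodermal repressor Snail, to CG31819 at 2L 35D-35F (chr2L:15466000-16214000, 63 genes), with ranks of 69.1 and 72.5 against 14.1 and 13.4. The largest adjusted p of any bin was 0.0351 in the first domain and 0.0353 in the second (limma).

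The end of 3R held a pair of neighbouring domains of the same kind. The domain from mrt to mil at 97F-98B (chr3R:27276000-27915000, 53 genes, among them the ribosomal protein gene RpS10a, the odorant receptor gene Or98a and Gr98a to Gr98d) ranked at 93.1 and 91.0 in the Rif1 libraries and at 30.5 and 25.0 in the wing disc. The domain from CG4815 to Ppn, a gene of the extracellular matrix, at 98B-98D (chr3R:27970000-28544000) held only 20 genes, or 3.48 per 100 kb. Its ranks were 96.4 and 96.4 against 12.9 and 13.2, and its scores 0.87 and 1.11 against -0.58 and -0.66. The fifth domain ran from beat-IIb to TyrR, a tyramine receptor gene, at 3R 89F-90C (chr3R:17219000-17786000, 68 genes with Sgs5 and beat-IIa) and ranked at 86.4 and 86.7 against 29.5 and 31.0. Wild-type glands lay between the other tissues in all 5 domains but that of 2L 35D-35F, where they stood lowest at 9.57 and 8.76.

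Among the named domains, those that ranked higher in the wing disc held 9.45 to 21.6 genes per 100 kb and those that ranked higher in the Rif1 gland 3.48 to 12. The longest of the wing disc ran from CG17472 to nompB, an intraflagellar transport gene, at 2L 38D-39E (chr2L:20631000-21624000) and held 214 genes, histone repeats included. It ranked at 15.6 and 17.3 in the Rif1 libraries and at 67.1 and 66.4 in the wing disc. At 3R 85C-85E (chr3R:9118200-9906200, CG11997 to Teh1, 126 genes with RpS29 and RpL34b) the ranks were 9.25 and 14.9 against 64.4 and 61.7, while the wild-type gland stood at 67.0 and 65.7, above both. At 3R 95A-95F (chr3R:23663000-24237000, GILT3 to Acp95EF, 105 genes) they were 10.8 and 11.9 against 73.1 and 73.8, and 75.1 and 72.7 in the wild type. In these 2 domains of 3R the wild-type gland and the wing disc were early together and the Rif1 gland was late.

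The remaining named domains showed smaller shifts of the same sign. At 2L 37A-37E (chr2L:18728000-19448000, CG42752 to Hs2st, a heparan sulfate modifying enzyme, 99 genes) ranks were 22.0 and 21.3 in the Rif1 libraries and 71.2 and 68.6 in the wing disc. At 3L 63C-63F (chr3L:3243700-3899600, CG43389 to Ccz1, 62 genes with the carbon dioxide receptor gene Gr63a) they were 20.5 and 23.6 against 70.6 and 68.9. Without wing disc replicate 1 most bins lost their call in the domains from CG42752 to Hs2st (mean shift of -47.0 points) and from CG11997 to Teh1 (-49.6). In all 10 named domains the Rif1 and wing disc libraries did not overlap, which the calls that define a domain require.

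**Figure D4:**
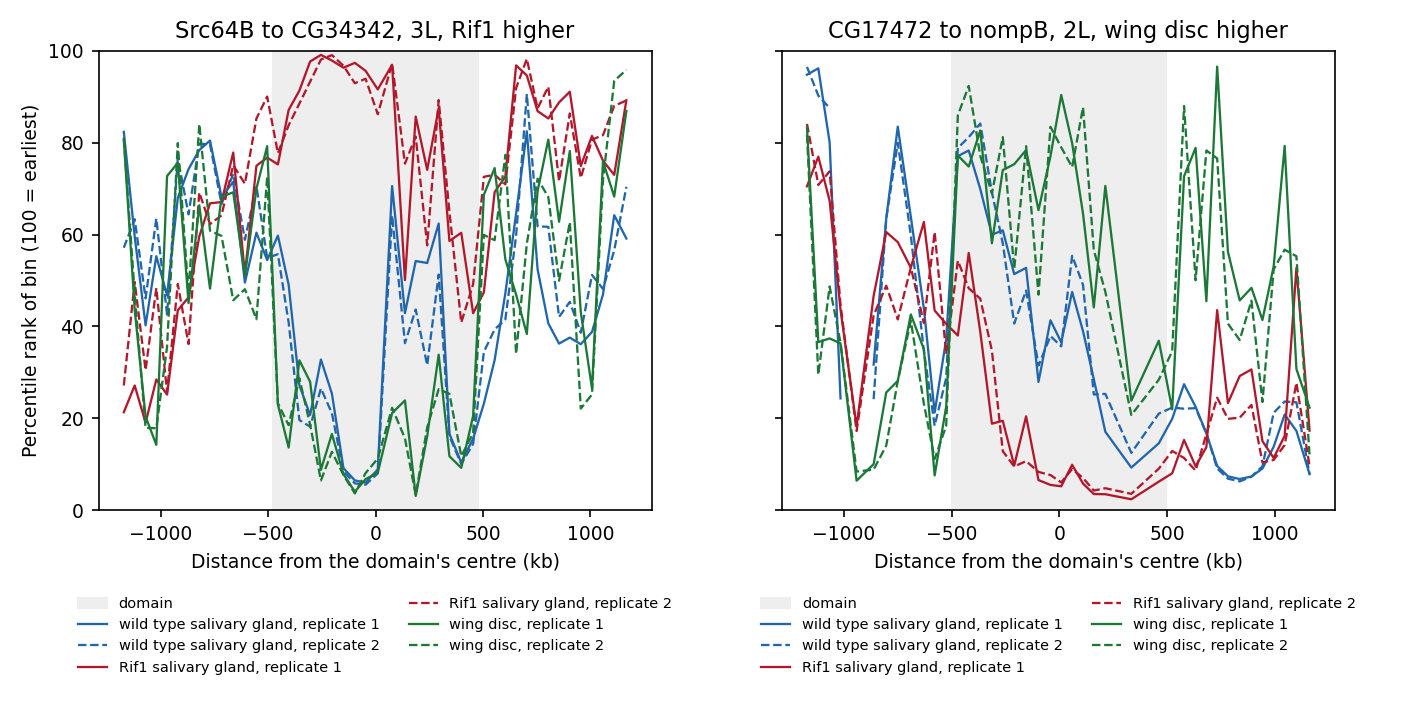
Percentile rank (100 = earliest) of the bins in and around the longest domain of each direction, against distance from its centre in kb, with 1 line per library and the domain shaded. In the domain from Src64B to CG34342 Rif1 lines average 82.5 and 81.4 and wing disc lines 16.1 and 15.5; in that from CG17472 to nompB they average 15.6 and 17.3 against 67.1 and 66.4.

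Both tissues were latest next to the centromere. When each arm was cut into 10 equal parts from the telomere, the part next to the centromere had median ranks of 6.43 and 5.61 in the Rif1 libraries and 8.16 and 7.89 in the wing disc. In the other 9 parts the median shift ranged from -15.5 to 13 points. The 10 bins next to the telomere of 2L ranked at 15.1 and 50.9 in the Rif1 libraries, 81.9 and 79.6 in the wing disc and 90.4 and 92.7 in the wild-type gland. On 3L the values were 11.4 and 42.5 against 71.1 and 78.5, and on X 45.6 and 54.6 against 74.8 and 72.9. The end of 2R went the other way, at 69.3 and 77.0 against 63.3 and 59.5, and that of 3R overlapped, at 58.7 and 90.2 against 81.2 and 73.7. By rank calls, 4 of the 10 bins were higher in the wing disc on 2L, 6 on 3L, 4 on X, 2 on 2R and 0 on 3R, and 0, 0, 2, 3 and 0 were higher in the Rif1 gland. Over all tested bins these shares were 24.3% and 23.8%, and the 10 adjacent bins of an end are not independent.

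Genes were given the values of the bin that holds their midpoint, and 13785 protein-coding genes lay in tested bins. Of these, 3077 (22.3%) lay in bins that ranked higher in the Rif1 gland and 3344 (24.3%) in bins that ranked higher in the wing disc, with a median shift of -1.16 points, and on rawRT 3245 and 3640 did. Several families departed from that background. Genes in the same bin share its values, so counts of genes are not counts of independent loci.

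Cell adhesion genes of the nervous system ranked lower in the wing disc than in the Rif1 gland, where they stood near the middle of all genes. The dpr, DIP and beat genes encode immunoglobulin-superfamily proteins that pair at synapses and on axons. Of the 45, in 44 bins, 27 (60%) ranked higher in the Rif1 gland and 1 in the wing disc (27 and 4 on rawRT), and the median rank was 55.6 in the Rif1 gland, 17.9 in the wing disc and 23.2 in the wild-type gland. Over all protein-coding genes these medians were 55.2, 57.2 and 63.8. The list thus departed from all genes in the wing disc and the wild-type gland. The widest shift was that of dpr6 at 3L 67D, which ranked at 93.9 and 90.8 in the Rif1 libraries and 7.02 and 4.20 in the wing disc (86.8 ± 4.35 points, SE, adjusted p = 0.0029, limma). It was followed by beat-VI at 3R 98D (80.3 points) and beat-IIa at 3R 90A (77.0 points). At the other end, dpr16 at 3R 82F ranked at 23.9 and 42.3 against 81.7 and 91.6 (adjusted p = 0.0128, limma), and dpr18 (-25.2 points) and DIP-alpha (-20.6 points) did not pass the test. Without wing disc replicate 1 or 2 the count higher in the Rif1 gland was 12 or 14, beside 10.4% or 11.1% of all bins in those fits, and dpr16 lost its call at -58.5 and -48.6 points.

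Wing disc patterning genes leaned the other way. Of 31 in tested bins (32 listed), 12 (38.7%) ranked higher in the wing disc and 1, on 2R, in the Rif1 gland, and on rawRT 10 and 3 did. Their median rank was 43.5 in the Rif1 gland, 42.4 in the wild-type gland and 74.1 in the wing disc. The POU-domain gene nub, active in the wing pouch, ranked at 22.8 and 19.5 in the Rif1 libraries and at 98.5 and 98.0 in the wing disc (-77.2 ± 4.24 points, SE, adjusted p = 0.0029, limma). The proneural gene ac ranked at 7.91 and 21.3 against 94.7 and 65.3. The Iroquois genes ara and caup, which pattern the notum and share a bin, ranked at 26.2 and 21.2 against 86.2 and 63.6. Not all members moved: the EGF-family ligand gene vn, the Dpp receptor gene tkv and Notch (N) had shifts of 14.3, 5.84 and -1.92 points that did not pass the test. The morphogen genes wg and dpp, looked up after the values were seen, had shifts of -35.0 (adjusted p = 0.0231, limma) and -4.26 points. Without wing disc replicate 1 the count higher in the wing disc was 3, beside 10.2% of all bins in that fit, and without wing disc replicate 2 it was 7, beside 11.3%. Without Rif1 replicate 1 or 2 it was 10 or 6, beside 18.9% and 20.3% of all bins, so without wing disc replicate 1 or Rif1 replicate 2 the list stood no higher than all bins. The calls of ac and of caup were lost without Rif1 replicate 1 (-58.5 and -53.6 points), Rif1 replicate 2 (-72.1 and -48.8) or wing disc replicate 1 (-50.7 and -39.9).

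The Hox genes, which set segment identity, divided by complex. Of 8, 4 ranked higher in the wing disc and 0 in the Rif1 gland (the same counts on rawRT), and all 4 belong to the Antennapedia complex at 3R 84A. Antp, expressed in the thorax, ranked at 24.4 and 16.8 in the Rif1 libraries, 85.1 and 98.6 in the wing disc and 11.8 in the wild-type gland (-71.2 ± 6.88 points, SE, adjusted p = 0.00454, limma). Dfd (-59.1 points), pb (-33.9) and Scr (-33.8), which act in the head and first thoracic segment, also passed, and lab, at the edge of the complex, did not (-3.14). In the bithorax complex at 3R 89D-89E no gene passed: abd-A ranked at 11.6 and 10.9 against 17.9 and 13.7, Abd-B at 30.4 and 15.2 against 26.8 and 39.3, and Ubx at 65.4 and 24.7 against 17.8 and 40.9. Only 2 Hox genes were called without wing disc replicate 1 or 2, and pb lost its call at -36.7 and -31.1 points. Scr lost it whichever of the 4 libraries was left out, at -40.8 to -26.8 points.

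The salivary glue genes, which are expressed in the salivary gland late in larval life and encode the glue that fixes the pupa, ranked higher in the Rif1 gland or did not pass. Of 9 genes in 5 bins, 5 (55.6%) in 3 bins ranked higher in the Rif1 gland and 0 in the wing disc, also on rawRT. Sgs5 at 3R 90B ranked at 95.4 and 97.1 in the Rif1 libraries, 40.8 and 54.7 in the wing disc and 93.4 in the wild-type gland. At X 3C, ng2 ranked at 79.6 and 66.2 against 22.8 and 26.1, and Sgs4, ng1 and ng3, in a common bin, at 76.8 and 77.7 against 32.9 and 39.9. The bin of Sgs3, Sgs7 and Sgs8 at 3L 68C had ranks of 64.0 and 96.4 against 34.2 and 71.2, which overlapped, and Sgs1 at 2L 25B had 78.0 and 91.7 against 68.9 and 72.1 without passing. The call of ng2 was lost without wing disc replicate 1 or 2, at 46.8 and 50.04 points.

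Ecdysone early genes, the transcription factors induced by the moulting hormone, showed little. Of 8, 1 (on 2R) ranked higher in the Rif1 gland and 1, Eip75B, in the wing disc (2 and 2 on rawRT), and the shift of Eip75B (-26.6 points, adjusted p = 0.0436, limma) was lost with other bin sizes and without Rif1 replicate 2 or either wing disc replicate (-31.0 to -19.9 points). Eip74EF was early in all libraries, at 96.4 and 91.1 against 83.3 and 89.6. Of the others, ftz-f1 (-10.1 points), Eip93F (-26.3) and Eip78C (-33.5) did not pass, and br ranked at 54.5 and 99.7 in the Rif1 libraries, a gap between replicates wider than its shift of -15.3 points. The SuUR gene at 3L 68A ranked at 77.1 and 42.7 in the Rif1 libraries and 97.5 and 96.5 in the wing disc (adjusted p = 0.0824, limma).

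Large families spread over the genome stayed nearer the background. Of 90 cytoplasmic ribosomal protein genes in tested bins, 12 (13.3%) ranked higher in the Rif1 gland and 24 (26.7%) in the wing disc (17 and 27 on rawRT). RpS3 at 3R 94E had the widest shift, with ranks of 17.2 and 11.5 in the Rif1 libraries and 98.9 and 92.8 in the wing disc, followed by RpS19b (-74.6 points) and RpS29 (-74.4 points). At the other end stood RpLP0 (62.3 points), RpL18 (53.1 points) and RpS10a (47.8 points). Of 70 cuticle protein genes of the Cpr family, in 37 bins, 13 (18.6%) ranked higher in the Rif1 gland and 12 (17.1%) in the wing disc, both under the shares of all genes, while on rawRT 10 and 19 did. Cpr65Ea, Cpr65Eb and Cpr65Ec shared a bin and a shift of 62.0 points, and the lowest was Cpr66Cb (-49.7 points) before the bin of Cpr76Bc and Cpr76Bd (-45.9 points). Of 179 chemoreceptor genes, in 126 bins, 55 (30.7%) and 41 (22.9%) were called, and 53 and 40 on rawRT. Among them Or98b (83.5 points), Or98a (76.8) and Or94a (73.1) ranked higher in the Rif1 gland, and Or1a (-85.1), Or13a (-75.5) and the thermosensory gene Ir21a (-60.1) in the wing disc. Calls were lost without wing disc replicate 1 or 2 for RpL18 (54.5 and 51.8 points) and the Cpr65E genes (57.7 and 66.4), without wing disc replicate 1 for Cpr66Cb (-44.3) and without Rif1 replicate 1 or 2 for RpS10a (49.1 and 46.5).

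**Figure D5:**
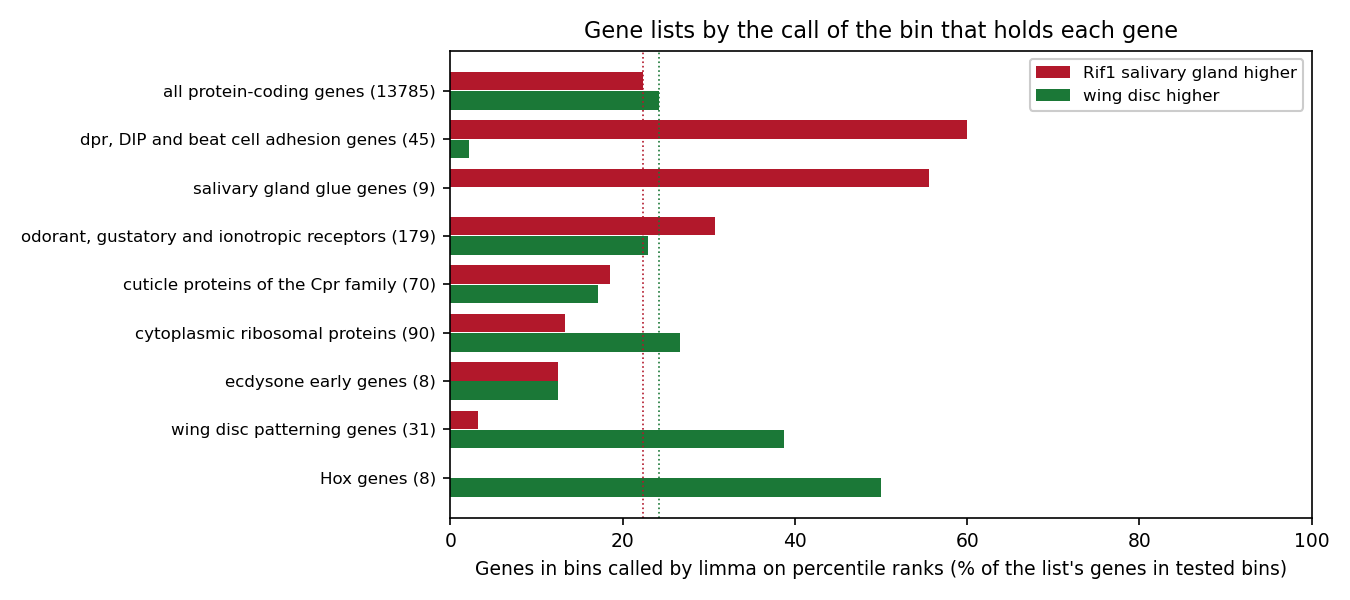
Share of each list's genes whose bin was called by limma on percentile ranks, as bars for the Rif1 salivary gland higher (red) and the wing disc higher (green), with the number of genes in tested bins in brackets. Dotted lines mark the shares over all 13785 protein-coding genes (22.3% and 24.3%); the dpr, DIP and beat genes reach 60% in the first direction and the wing disc patterning genes 38.7% in the second.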

How the data were processed

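Per the methods, alignment to dm6 used BWA mem (version 0.7.17), Picard marked duplicates and samtools kept unique reads by mapping quality. TIGER then turned read numbers in windows of 1000 bp of unique sequence into GC-corrected values and dropped outlying windows. The deposited rawRT is a score, which the authors centred at 0 and scaled to unit SD over salivary gland arms outside UR. Wing disc scores came from an earlier G1/S study; how they were scaled is not given in the sources used here, although on X they are centred at 0 with an SD of 1. The deposited smoothed score is a spline through rawRT and was used only as an alternative. Coordinates in the table are rounded to 5 significant digits, as are those printed for bins, domains and regions. The number of sample columns left unused for want of a sample was 0.

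Bins of 50 windows with at least 25 values per library were tested with limma (version 3.58.1, R 4.3.3; lmFit and eBayes, Benjamini-Hochberg adjusted p below 0.05) on mean rawRT and on percentile ranks, as Rif1 minus wing disc, without a block. The analysis of variance followed the study's rule (Bonferroni adjusted p below 0.01, regions over 200 kb). UR was called from wild-type salivary gland rawRT (running median of 21 windows, 1 SD below the mean, gaps under 10 windows, at least 50 kb), and PH ended at 100 windows above it. UR regions past that end were called eUR, also where they lay in the most proximal divisions. Genes and bands are from RefSeq on the same assembly. Salivary gland libraries are biological duplicates; for the wing disc nothing states separate collections, so p-values measure the spread between these libraries. Replicate numbers did not pair libraries: deviations of same-numbered libraries correlated at 0.0615 (rawRT) and -0.0132 (ranks). Both scripts were tested on simulated data.

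Named were the 5 longest domains per direction, the 5 highest and 5 lowest eUR regions and those of bands 35B to 36D, all members of lists under 12 genes and the 3 highest and 3 lowest of longer lists; items on 2R were counted only. The comparison, regions and lists were chosen with earlier results of these data known. Alternatives covered bin size, scaling, GC, UR threshold, smoothing, bin filter, the replicate block and each library left out.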

Additional observations from a re-analysis of the deposited data

How the results depend on the processing

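With 2 libraries a group and no read depth, each call rests on 4 values. Limma calls without a library ranged from 343 to 1673 on rawRT (1296 with all) and from 488 to 1018 on ranks (1142), lowest without either wing disc replicate (382 and 343 on rawRT, 488 and 530 on ranks), where the Rif1 pair alone gives the spread. Bins of 25 windows gave 2225 and 1990 calls (47% and 42.1% of bins) and bins of 100 gave 662 and 639 (55.8% and 53.9%). The number of bins tested differed, but so did the share called, which was 54.7% on rawRT and 48.2% on ranks at the main bin size. Why the share rose with bin size was not tested. Under the other alternatives the rawRT and rank counts stayed within 1.5 times, and the replicate block gave 1326 and 1047. The analysis of variance (377) gave 425 with bins of 100 windows, 142 with bins of 25, 716 without the length limit, 233 after scaling by signal and 2125 on smoothed scores, and 200 to 284 without a library. Its windows are not replicates, and smoothing ties them further.

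Pearson's r (0.210) was 0.0222 over FR bins, 0.270 with bin medians and 0.112 after removal of a GC fit (0.160 to 0.256 without a library). Spearman's rho (0.112) was -0.00311 over FR bins (0.0795 to 0.139). The share of windows in the same quartile (26.8%) was 27.6% and 29.7% in bins of 25 and 100, 28.8% smoothed, 25.0% over FR bins and 27.7% with quartiles of bin means (26.5 to 27.1). The median eUR difference was 0.237 in rawRT, 0.0909 with a running median of 51 windows, 0.822 after scaling by signal and 0.106 to 0.283 without a library. In ranks it was 11.9, 15.6 at a threshold of -1, 14.9 with arms centred, 24.7 smoothed and 12.6 to 17.1 without a library. The median PH difference over arms was -1.31 in rawRT, -0.741 at a threshold of -1, -0.475 smoothed and -1.62 to -0.994 without a library. In ranks it was 1.86, 0.105 at a threshold of -1, 1.68 with a running median of 51, 2.11 after quantile normalization, 0.101 with arms centred, 2.17 smoothed and 1.77 to 1.94 without a library. Bin medians, the GC fit and quartiles of bin means were chosen after seeing the data; the causes of these shifts were not tested.

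Among named items, 2 reversed: the 3L 75C region (2.76 points after removal of a GC fit, -31.9 before) and Eip75B (0.717 with bins of 100 windows, -26.6 before). The 10 named domains kept their call in 130 of 130 values under other settings and in 38 of 40 with a library left out. A domain kept its call if at least as many of its bins were called as not. The domains were chosen as the longest runs of called bins in these libraries, so these counts are no independent check.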
